A study of Mus musculus with 12 samples.

Results

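The growth hormone (GH) and insulin-like growth factor (IGF) axis genes described here are 10 genes chosen by symbol, out of 22276 genes listed across the series: the receptor *Ghr*, the signal transducer *Stat5b*, the hormone *Igf1*, its carrier subunit *Igfals*, the binding proteins *Igfbp1*, *Igfbp2*, *Igfbp3* and *Igfbp5*, and the feedback inhibitors *Socs2* and *Cish*. All 10 were present in the tables of liver, gastrocnemius muscle and the gonadal fat pad (gonadal white adipose tissue, WAT), and a value above 0 in every library was found for 10 of them in liver, 9 in WAT and 8 in muscle. The mice were male C57BL/6J animals, 8 weeks old at the start, whose drinking water held 1% ethanol alone (vehicle) or together with 100 µg/mL corticosterone (CORT) for 4 weeks. All carried the floxed glucocorticoid receptor gene *Nr3c1*, and GRmKO mice additionally carried Cre recombinase driven by the *Acta1* promoter, which is active in skeletal myofibers, so that GR was deleted there and not in liver or WAT, whereas GRf/f mice lacked Cre. In each tissue there was 1 library for each of the 4 groups (GRf/f or GRmKO, vehicle or CORT), made from a pool of RNA of 3 mice. No group had a second library, so the spread between mice or pools is unknown, and no p value can be given.

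GH from the pituitary binds its receptor on liver, muscle and fat cells, and the kinase JAK2 then activates the transcription factor STAT5B. STAT5B induces *Igf1* and *Igfals* in liver as well as *Socs2* and *Cish*, whose products restrain the same signal. IGF1 circulates in a complex of IGFBP3 (or IGFBP5) with the acid-labile subunit encoded by *Igfals*, whereas IGFBP1 and IGFBP2 form smaller complexes, and hepatic *Igfbp1* is known for its suppression by insulin.

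Levels are given in CPM, the deposited estimated count of a gene per 1000000 counts of its library. A gene was called higher or lower when log2((CPM + 0.5)/(CPM + 0.5)) reached 1 in size, that is 2-fold, for genes with no zero value among the 4 libraries of the tissue. The 95% interval in parentheses after a log2 change is the exact Clopper-Pearson interval of the count ratio without the added 0.5 CPM. It therefore covers counting error only, and for weakly expressed genes it can sit off center or wholly beyond the log2 change. Library totals ran from 19394572 to 20940660, so that 3 counts corresponded to about 0.15 CPM. *Nr3c1*, the deleted gene, stood at 113 and 90.4 CPM in vehicle- and CORT-treated GRf/f muscle and at 46.4 and 35.5 CPM in vehicle- and CORT-treated GRmKO muscle, which follows the labels, and the counts cover the whole transcript rather than the deleted exon alone. Lists of 8 myofiber, 12 hepatocyte and 8 adipocyte markers were highest in muscle, liver and WAT, respectively. Hepatocyte markers summed to 44.7, 49.8, 148 and 420 CPM in muscle of GRf/f vehicle, GRf/f CORT, GRmKO vehicle and GRmKO CORT mice, and adipocyte markers to 267, 667, 366 and 524.8 CPM. Of the hepatocyte sums *Trf*, which stood at 2990 CPM in vehicle-treated GRf/f WAT, made up 37.1, 39.6, 51.6 and 86.5 CPM. The median hepatocyte marker in muscle was at 0.0076%, 0.0069%, 0.0769% and 0.230% of its level in liver of the same group. All values below follow this order of groups.

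Stretches of 30 bases are shown to place the letters known to be recognized by the factors of this axis near the start sites. In the RefSeq promoter table (GRCm38.p6; 250 bases before to 50 after a start), 9 of the 10 genes were found with 14 windows. The motifs searched on both strands were the STAT5 core TTCNNNGAA, the glucocorticoid receptor core ACANNNTGT, the FOXO core GTAAACA and the insulin response element core CAAAACA, and none of the matches shown overlapped a match to another of these motifs. Capitals mark the match.
*Cish*, chr9:107296659-107296688, plus strand, in an exon of the transcript listed for the gene: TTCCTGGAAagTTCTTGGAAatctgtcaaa
*Igfals*, chr17:24877597-24877626, plus strand: cgatctataatTTCTCAGAAaagaggctga
*Igfals*, chr17:24878162-24878191, plus strand: tctgccaggtgTTCCTAGAAgaggccctgg
*Igfals*, chr17:24877981-24878010, plus strand, match on the minus strand: gggcagcaTGTTTACctggggtctttgtac
*Igfbp1*, chr11:7197667-7197696, plus strand: agagctcacaagCAAAACAaacttattttg
*Stat5b*, chr11:100822667-100822696, minus strand, in an intron of the transcript listed for the gene in liver and WAT: ctttactggaaACAAAATGTgattgcgtac
The STAT5 core was found in windows of *Cish*, with 2 matches beginning 1 and 12 bases from the start, and of *Igfals*, and it was present in 8.3% of all 32851 windows. The CAAAACA of *Igfbp1* lay at -108 from the start, and 6.28% of all windows held this motif. The glucocorticoid receptor core occurred in 6.85% and the FOXO core in 3.65% of all windows. A match describes letters only and is not evidence of binding in these tissues.

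**Figure D1:**
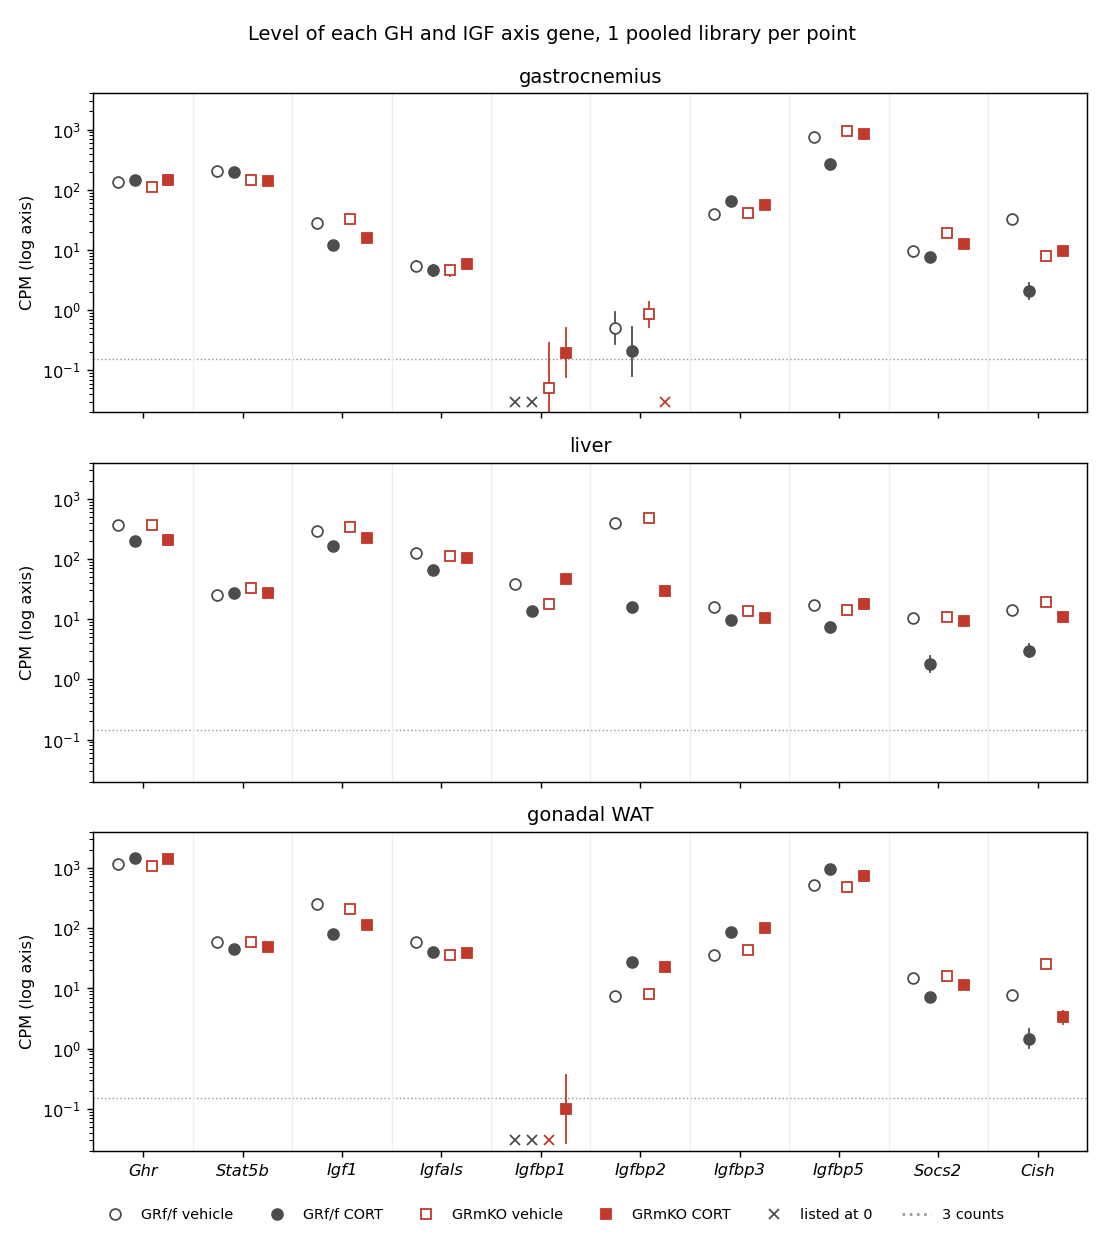
Level of each of the 10 genes in every library, in CPM on a log axis, with 1 pooled library per point and bars for the 95% Wilson interval (counting error only). Circles are GRf/f and squares GRmKO, open symbols vehicle and filled symbols CORT, crosses mark genes listed at 0, and the dotted line marks 3 counts; *Igfbp2* in liver stands at 390 and 473 CPM under vehicle and at 15.8 and 29.5 CPM under CORT.

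The tissues differed in the level and order of these genes. Per kilobase of the listed transcript, the order in vehicle-treated GRf/f liver was led by *Igfbp2* at 298 CPM per kb, followed by *Ghr* at 89.1, *Igfals* at 48.7, *Igf1* at 41.9 and *Igfbp1* at 24.8 CPM per kb. *Igfbp5* led in muscle at 123 CPM per kb, ahead of *Stat5b* at 39.0 and *Ghr* at 31.9 CPM per kb, and *Igf1* stood at 4.05 CPM per kb. In WAT *Ghr* led at 277 CPM per kb, ahead of *Igfbp5* at 87.9 and *Igf1* at 35.4 CPM per kb. *Igfbp1* was a liver transcript, at or near 0 elsewhere: it was listed at 0 in 2 of the 4 muscle libraries and 3 of the 4 WAT libraries, and at 0.050 to 0.197 CPM in the others. The lower end of each order held genes that lay close together, such as *Cish*, *Stat5b* and *Socs2* in liver at 4.98, 4.95 and 4.8 CPM per kb.

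The first question was how these genes responded to CORT in mice with intact muscle GR, and whether the response was the same in mice without it. In GRf/f liver 5 of the 10 genes fell by at least 2-fold (*Igfbp2*, *Socs2*, *Cish*, *Igfbp1* and *Igfbp5*) and 0 rose, against 5.72% of the 12485 genes tested that fell and 5.90% that rose. The median log2 change of the 10 was -1.06, compared with 0.00 for all genes tested. In GRmKO liver *Igfbp2* fell and *Igfbp1* rose, against 2.82% and 2.80% of all genes, and the median of the 10 was -0.32, compared with 0.05. In GRf/f muscle 3 of 8 genes fell (*Cish*, *Igfbp5* and *Igf1*) and 0 rose, where 4.72% of 13543 genes fell and 3.26% rose. In GRmKO muscle *Igf1* was the single call, 1 fall and 0 rises, against 5.02% and 1.51% of genes. In GRf/f WAT *Igfbp2* and *Igfbp3* rose and *Cish* and *Igf1* fell, 2 of 9 in each direction, against 5.49% and 8.07% of 14218 genes. In GRmKO WAT *Igfbp2* and *Igfbp3* rose and *Cish* fell, against 3.47% and 5.63% of genes.

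**Figure D2:**
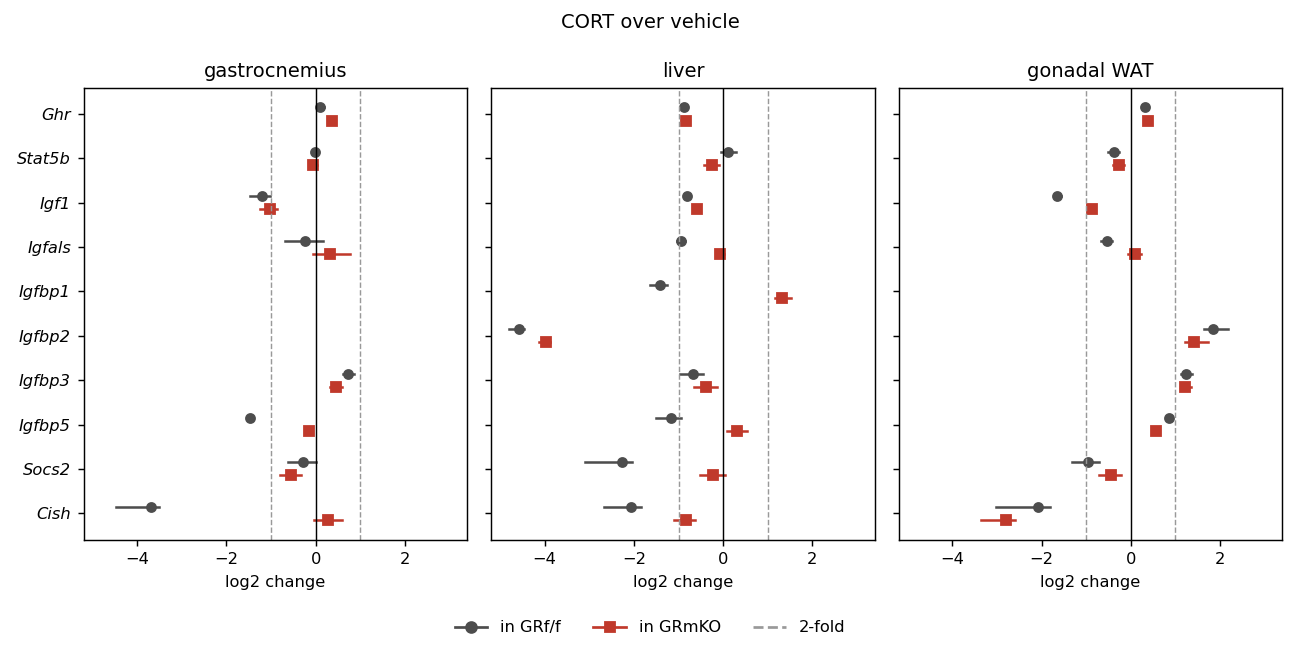
Log2 change of CORT over vehicle for each gene tested in a tissue, in GRf/f (circles) and GRmKO (squares) mice, with lines for the 95% counting interval and dashed lines at 2-fold. In liver *Igfbp1* stands at -1.41 in GRf/f and at 1.31 in GRmKO mice, and in muscle *Cish* stands at -3.68 and at 0.27.

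*Ghr* (ENSMUST00000069451; chromosome 15, 3317760 to 3583492, minus strand, GRCm38), the receptor for GH, stood at 372, 202, 368 and 207 CPM in liver. Both CORT libraries lay below both vehicle libraries, at 54.3% of vehicle in GRf/f (log2 change of -0.88, -0.93 to -0.83) and 56.4% in GRmKO mice (-0.83, -0.88 to -0.77), short of 2-fold. Elsewhere the CORT libraries were the higher ones. In WAT *Ghr* measured 1158, 1450, 1071 and 1396 CPM, a log2 change of 0.32 (0.30 to 0.35) in GRf/f and of 0.38 (0.36 to 0.41) in GRmKO mice, and in muscle 133, 143, 113 and 145 CPM, with 0.10 (0.02 to 0.18) and 0.36 (0.28 to 0.44). Adipocyte markers moved with the muscle values. Their median level in muscle was 0.545%, 2.73%, 0.547% and 1.82% of that in WAT of the same group, and such a share of the WAT level of *Ghr* corresponds to 6.31, 39.6, 5.86 and 25.4 CPM. Their part in the muscle level was not tested.

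*Stat5b* (chromosome 11, 100780731 to 100850724, minus strand), which carries the signal to the nucleus, was not called in any comparison. Its muscle levels of 204, 200, 146 and 141 CPM separated the genotypes rather than the treatments, with both GRmKO libraries lower (log2 difference of -0.48 under vehicle and -0.51 under CORT). The liver values were 25.1, 27.2, 32.5 and 27.0 CPM and those of WAT 59.3, 45.5, 60.2 and 49.8 CPM. The muscle table listed another transcript of the gene (ENSMUST00000107358) than the tables of liver and WAT (ENSMUST00000004143), so the muscle level is not set beside the others. The other 9 genes had the same transcript in all 3 tissues.

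*Igf1* (ENSMUST00000095360; chromosome 10, 87858265 to 87937042, plus strand), the growth-promoting hormone that acts both from the blood and locally, was lower under CORT in both genotypes and all 3 tissues. Liver levels were 295, 167, 342 and 228 CPM, which is 56.5% of vehicle in GRf/f (log2 change of -0.82, -0.88 to -0.76) and 66.5% in GRmKO mice (-0.59, -0.64 to -0.54), and neither was called. In muscle the levels were 28.5, 12.0, 32.7 and 15.8 CPM, so that *Igf1* fell to 42.2% of vehicle in GRf/f (-1.21, -1.47 to -1.03) and to 48.3% in GRmKO mice (-1.03, -1.25 to -0.86), and the fall in GRmKO muscle was under 2-fold with TMM scaling (-0.89). WAT levels were 249.7, 79.6, 210 and 116 CPM. There *Igf1* fell to 31.9% in GRf/f mice (-1.64, -1.73 to -1.57) and stood at 54.9% of vehicle in GRmKO mice (-0.86, -0.94 to -0.79), short of 2-fold.

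Markers of stromal cells, which also express *Igf1*, moved with some of these values. The summed level of 6 fibroblast markers in muscle was 1501, 559, 2303 and 795 CPM, with 0 of the 6 at 0 in any library. Muscle macrophage markers, 5 in number, summed to 44.1, 47.0, 126 and 38.6 CPM and did not fall with CORT in GRf/f mice. The 5 endothelial markers summed to 303, 261, 304 and 215 CPM in muscle. In WAT the fibroblast markers summed to 2551, 3023, 2496 and 3087 CPM, opposite to *Igf1*, whereas 5 endothelial markers summed to 585, 230, 533 and 304 CPM and 5 macrophage markers to 277, 623, 334 and 557 CPM. In bulk tissue, fewer cells of a type and less RNA per cell cannot be told apart, and the part of these cells in the *Igf1* values was not tested.

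*Igfals* (ENSMUST00000050714; chromosome 17, 24865997 to 24882010, plus strand), whose protein holds IGF1 in the large circulating complex, stood in liver at 128, 66.2, 111 and 105 CPM. The CORT-treated GRf/f library was thus apart from the other 3, at 51.7% of its vehicle (log2 change of -0.95, -1.05 to -0.86), against 95.2% in GRmKO mice (-0.07, -0.16 to 0.01). WAT showed 59.5, 40.8, 36.7 and 39.0 CPM, and there the vehicle-treated GRf/f library was the high one. In muscle *Igfals* ran from 4.58 to 5.85 CPM, with intervals that included 0 in all 4 comparisons.

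Among the binding proteins, the widest range was that of hepatic *Igfbp2* (ENSMUST00000047328; chromosome 1, 72824503 to 72852474, plus strand), which binds IGF1 and IGF2 outside the large complex. It stood at 390, 15.8, 473 and 29.5 CPM, and both CORT libraries lay far below both vehicle libraries. *Igfbp2* fell to 4.05% of vehicle in GRf/f liver (log2 change of -4.58, -4.79 to -4.47) and to 6.24% in GRmKO liver (-3.98, -4.12 to -3.89). The GRmKO library was 187% of the GRf/f library under CORT (0.88, 0.71 to 1.10). The direction was opposite in WAT, where *Igfbp2* measured 7.42, 27.7, 8.10 and 22.4 CPM and rose by 1.83 (1.64 to 2.17) in GRf/f and 1.42 (1.21 to 1.74) in GRmKO mice. In muscle it was listed at 0.504, 0.206, 0.846 and 0 CPM, too low for a comparison.

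*Igfbp1* (ENSMUST00000020704; chromosome 11, 7197782 to 7202546, plus strand) passed 2-fold with CORT in opposite directions in the 2 genotypes. Its liver levels were 37.8, 13.9, 18.2 and 45.9 CPM. CORT was accompanied by a fall to 36.7% of vehicle in GRf/f liver (-1.41, -1.65 to -1.25) and by a rise to 252% in GRmKO liver (1.31, 1.16 to 1.51). The GRmKO library was therefore lower than GRf/f under vehicle (-1.04, -1.23 to -0.88) and higher under CORT (1.69, 1.53 to 1.92), and its call under vehicle was lost with an added 2 CPM (-0.98). The RefSeq promoter stretch of this gene with CAAAACA is shown above. The clock output gene *Dbp*, which varies with time of day, stood in liver at 124, 2.97, 74.1 and 31.6 CPM, and its part in the liver values was not tested.

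*Igfbp3* (ENSMUST00000020702; chromosome 11, 7206086 to 7213923, minus strand), the main carrier of IGF1 in blood, lies next to *Igfbp1* on the chromosome. It rose in WAT of both genotypes, from 36.0 to 85.8 CPM in GRf/f (1.24, 1.13 to 1.38) and from 42.9 to 101 CPM in GRmKO mice (1.23, 1.12 to 1.35), and the 2 CORT libraries lay above the 2 vehicle libraries. Muscle showed 39.5, 65.7, 41.2 and 56.4 CPM, with CORT again above vehicle but short of 2-fold (0.73 and 0.45). In liver the order was opposite, at 15.9, 9.74, 13.6 and 10.4 CPM (-0.68, -0.97 to -0.45 in GRf/f and -0.38, -0.65 to -0.13 in GRmKO mice). Some markers of liver cells other than hepatocytes moved with these values. The 4 Kupffer cell markers summed to 128, 40.6, 104 and 62.0 CPM and 5 macrophage markers to 83.7, 30.2, 64.1 and 42.6 CPM. The 5 hepatic stellate cell markers summed to 51.3, 39.9, 57.4 and 46.0 CPM and 5 endothelial markers to 61.9, 44.1, 61.4 and 60.5 CPM. The 6 fibroblast markers, at 126, 130, 159 and 144 CPM, did not fall with CORT in GRf/f liver. The part of these cells in the liver values of *Igfbp3* and *Igfbp5* was not tested.

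*Igfbp5* (ENSMUST00000027377; chromosome 1, 72857932 to 72874884, minus strand), an abundant binding protein of muscle and connective tissue and the neighbor of *Igfbp2*, had 1 muscle library apart from the other 3. Levels were 741, 268, 937 and 850 CPM, with the CORT-treated GRf/f library as the low one. *Igfbp5* fell to 36.2% of vehicle in GRf/f muscle (-1.46, -1.51 to -1.42) and stood at 90.8% in GRmKO muscle (-0.14, -0.17 to -0.11, and 0.01 with TMM scaling). The same shape was seen in liver at a much lower level, with 17.5, 7.51, 14.4 and 17.9 CPM, a fall in GRf/f (-1.17, -1.50 to -0.94), which NOISeq, the study's method, did not call, and a log2 change of 0.30 (0.09 to 0.54) in GRmKO mice. In WAT, in contrast, the values of 528.1, 954, 494 and 729 CPM were higher under CORT in both genotypes (0.85 and 0.56). The fibroblast markers of muscle given above were lowest in the CORT-treated GRf/f library too, but also lower under CORT in GRmKO muscle, and their part in the *Igfbp5* values was not tested.

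The feedback inhibitors included the widest differences between genotypes under CORT in each tissue. *Cish* (ENSMUST00000085102; chromosome 9, 107296026 to 107302784, plus strand), whose product CIS binds the activated GH receptor and whose window holds the paired STAT5 cores shown above, stood in muscle at 32.3, 2.06, 7.80 and 9.49 CPM. The GRf/f libraries were the highest and the lowest of the 4, with both GRmKO libraries between them. *Cish* fell to 6.37% of vehicle in GRf/f muscle (-3.68, -4.47 to -3.51), against a log2 change of 0.27 (-0.03 to 0.59) in GRmKO muscle. Liver levels were 14.2, 2.98, 19.6 and 10.8 CPM, a fall to 21% in GRf/f (-2.08, -2.67 to -1.85) and 55.0% of vehicle in GRmKO mice (-0.83, -1.11 to -0.63). In WAT *Cish* fell in both genotypes, from 7.68 to 1.43 CPM in GRf/f (-2.08, -3.02 to -1.82), a fall that NOISeq did not call, and from 25.9 to 3.32 CPM in GRmKO mice (-2.79, -3.36 to -2.60).

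*Socs2* (ENSMUST00000020215; chromosome 10, 95385362 to 95417180, minus strand), which limits GH signaling and body growth, measured 10.7, 1.80, 10.9 and 9.27 CPM in liver. A single library, that of CORT-treated GRf/f mice, stood apart. *Socs2* fell to 16.9% of vehicle in GRf/f liver (-2.28, -3.10 to -2.05) and stood at 84.7% in GRmKO liver (-0.23, -0.53 to 0.04). In WAT the values were 14.7, 7.26, 15.9 and 11.6 CPM (-0.97, -1.31 to -0.72 in GRf/f and -0.44, -0.71 to -0.21 in GRmKO mice), and in muscle 9.45, 7.62, 18.9 and 12.7 CPM, with both GRmKO libraries above both GRf/f libraries. *Dbp* also had its lowest muscle level in CORT-treated GRf/f mice, at 116, 3.37, 150 and 71.3 CPM, whereas in WAT it was low under CORT in both genotypes, at 246, 8.75, 195 and 8.40 CPM. Its part in the *Cish* and *Socs2* values was not tested.

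The second question was how loss of muscle GR was reflected in the 3 tissues at a given treatment. These comparisons use the same libraries as those above, so their values are another view of the same 4 levels per tissue and not a further test. In liver under vehicle *Igfbp1* was lower in GRmKO mice and 0 of the 10 genes was higher, against 1.04% and 1.26% of all genes. Under CORT 4 of the 10 were higher in GRmKO liver (*Socs2*, *Cish*, *Igfbp1* and *Igfbp5*) and 0 lower, against 2.44% and 2.27% of all genes. The largest of the 4 was *Socs2*, with a log2 difference of 2.08 (1.84 to 2.90), followed by *Cish* with 1.70 (1.43 to 2.28), *Igfbp1* with 1.69 and *Igfbp5* with 1.2 (0.97 to 1.53). The median of the 10 was 0.78, compared with 0.07 for all genes tested, and *Igfals* (0.67, 0.57 to 0.77) and *Igf1* (0.45, 0.38 to 0.51) did not reach 2-fold. *Ghr* and *Stat5b* were at 103% and 99.5% of the GRf/f level.

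In muscle under vehicle *Cish* was lower in GRmKO mice (-1.98, -2.31 to -1.79) and 0 of 8 genes was higher, against 3.18% and 4.59% of all genes, while *Socs2* stood just inside 2-fold at 0.96 (0.75 to 1.26). Under CORT *Cish* (1.97, 1.70 to 2.73) and *Igfbp5* (1.66, 1.62 to 1.71) were higher and 0 were lower, against 4.40% and 5.31% of all genes. *Cish* thus lay on opposite sides of the GRf/f level under the 2 treatments. In WAT under vehicle *Cish* was higher in GRmKO mice (1.69, 1.49 to 2.03) and 0 of 9 genes was lower, against 1.07% and 1.15% of all genes. Under CORT 0 of 9 genes was called in either direction, against 1.43% higher and 1.19% lower. *Cish* at 0.98 (0.54 to 1.87) was the closest of these and passed 2-fold with TMM scaling (1.01).

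**Figure D3:**
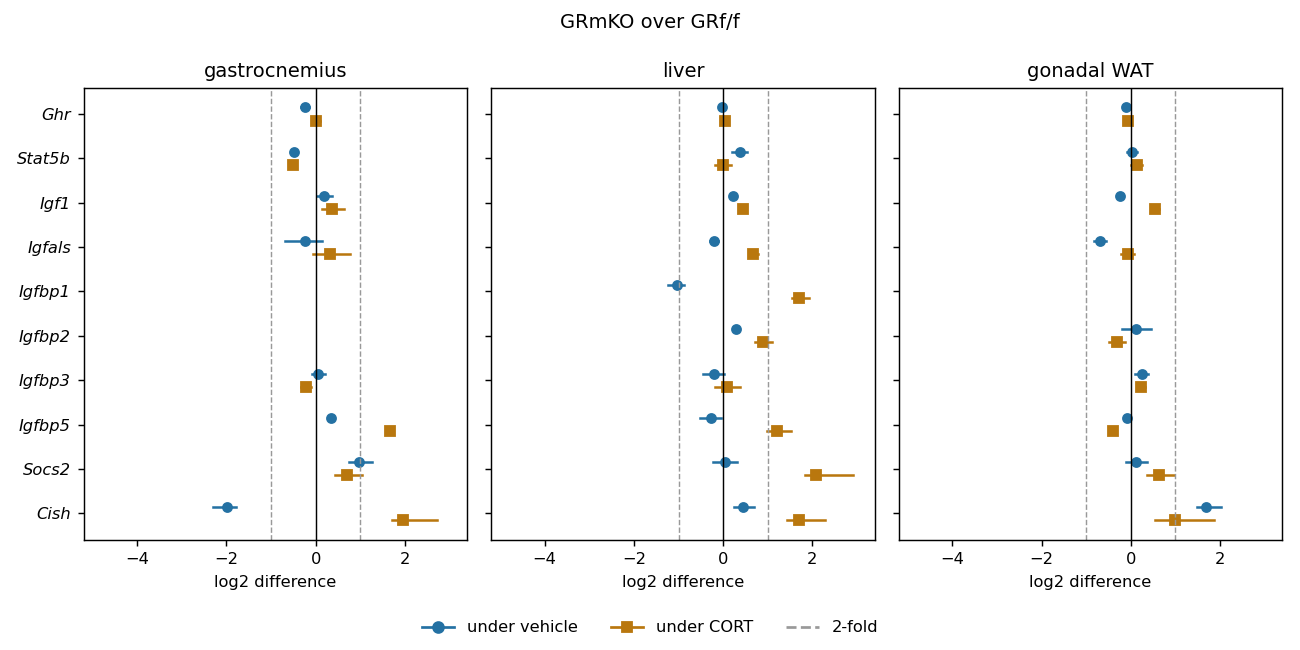
Log2 difference of GRmKO over GRf/f for each gene tested in a tissue, under vehicle (circles) and CORT (squares), with lines for the 95% counting interval and dashed lines at 2-fold. In liver *Socs2* moves from 0.04 under vehicle to 2.08 under CORT, and in muscle *Cish* stands at -1.98 and 1.97.

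Other components of the pathway were taken from 3 lists. Of 20 genes of GH receptor signaling, 16 were tested in muscle, where 3 fell and 0 rose with CORT in GRf/f mice (median of -0.05, compared with -0.08 for all genes), against 4.72% and 3.26% of all genes. The 3 were *Jak2*, the receptor's kinase, from 57.4 to 17.8 CPM (-1.66, -1.86 to -1.51), *Stat5a*, the close relative of *Stat5b*, from 9.93 to 4.44 CPM (-1.08, -1.55 to -0.79), and *Socs1*, another feedback inhibitor, from 3.38 to 0.721 CPM (-1.67, -3.17 to -1.38). In GRmKO muscle the changes were 1.04 for *Jak2*, which rose from 14.2 to 29.6 CPM, 0.20 for *Stat5a* and -0.38 for *Socs1*. In GRf/f liver 0 of 13 passed 2-fold in either direction (median of 0.09, compared with 0.00), against 5.90% higher and 5.72% lower of all genes, whereas in GRmKO liver, where 2.80% of all genes rose and 2.82% fell, *Ptpn6* (1.16) and *Ptpn11* (1.05), both protein tyrosine phosphatases, rose and *Bcl6*, a repressor that binds at many STAT5 sites, fell from 39.9 to 6.38 CPM (-2.55, -2.91 to -2.37). Those 3 were named after their values were seen. *Jak2* was listed at 0 in vehicle-treated GRf/f liver and at 11.3, 11.2 and 10.7 CPM in the other liver libraries, and was not tested there. In GRf/f WAT *Stat5a* fell from 67.3 to 27.7 CPM (-1.26, -1.43 to -1.14) as the only call of 16 (median of 0.07, compared with -0.07), where 8.07% of all genes fell and 5.49% rose, and it showed -0.40 in GRmKO WAT. The remaining calls in GRmKO mice, also named after their values were seen, were falls of *Bcl6* (-1.61) and *Ptpn6* (-1.53) in muscle and of *Jak2* (-1.61) in WAT, and a rise of *Socs3* (1.05) in WAT. Of all genes 5.02% fell and 1.51% rose in GRmKO muscle, and 5.63% and 3.47% in GRmKO WAT. The hormone gene *Gh* itself and *Ghsr* were listed at 0 in all 12 libraries.

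Among 10 genes of the IGF and insulin receptors, their adaptors and *Igf2*, 9 were tested in muscle, 7 in liver and 9 in WAT. In GRf/f muscle *Irs2*, an insulin receptor substrate, rose from 57.9 to 189 CPM (1.70, 1.61 to 1.81) and *Grb14*, an adaptor that inhibits the insulin receptor, fell from 16.4 to 6.15 CPM (-1.35, -1.74 to -1.11), and the changes in GRmKO muscle were 0.83 and 0.40. In GRf/f liver *Irs1* was the single call, rising from 3.86 to 12.9 CPM (1.62, 1.37 to 2.11), with 0.84 in GRmKO liver. In GRf/f WAT *Grb10*, another inhibitory adaptor, rose from 24.0 to 67.1 CPM (1.47, 1.33 to 1.64) and *Igf2* fell from 13.7 to 6.16 CPM (-1.09, -1.47 to -0.83), whereas in GRmKO WAT *Grb10* stood at 54.8 and 54.7 CPM and *Igf2* changed by -0.19. In GRmKO mice *Irs2* in liver, named after its values were seen, was the only call of this list in the 3 tissues, rising from 5.20 to 15.1 CPM (1.45, 1.21 to 1.86). The list medians in GRf/f mice were 0.11 in muscle, 0.13 in liver and -0.07 in WAT, compared with -0.08, 0.00 and -0.07 for all genes, and the shares of all genes called in each tissue and genotype are those given for the GH receptor signaling list.

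The other IGF-binding proteins and the proteases and stanniocalcins that control release of IGF from them made up a list of 12, of which 11 were tested in muscle, 8 in liver and 11 in WAT. *Adamts1*, a secreted metalloproteinase, rose in all 3 tissues of GRf/f mice, from 52.2 to 136 CPM in muscle (1.37, 1.27 to 1.48), from 3.93 to 10.97 CPM in liver (1.37, 1.12 to 1.87) and from 40.3 to 139 CPM in WAT (1.78, 1.68 to 1.91). In GRmKO mice the respective changes were 0.56, 0.75 and -0.39. In GRf/f muscle *Stc2*, an inhibitor of the IGFBP protease PAPP-A, rose from 1.71 to 10.5 CPM (2.32, 2.09 to 3.19) and *Mmp2* fell from 89.7 to 28.6 CPM (-1.63, -1.79 to -1.51), against -0.52 and -1.72 in GRmKO muscle. Fibroblast markers in muscle also fell with CORT, from 1501 to 559 CPM in GRf/f and from 2303 to 795 CPM in GRmKO mice. Their part in the *Mmp2* values was not tested. In GRf/f WAT *Stc1* fell from 7.72 to 0.804 CPM (-2.66, -4.11 to -2.52), *Mmp9* from 12.1 to 2.61 CPM (-2.02, -2.68 to -1.78) and *Igfbp7* from 468 to 226 CPM (-1.05, -1.10 to -1.001), and the GRmKO changes were -0.41, -1.08 and -0.30. *Igfbp7* is also made by endothelial cells, whose markers summed to 585 and 230 CPM in those GRf/f libraries, and their part was not tested. In GRmKO mice 0 genes of this list rose in the 3 tissues, *Mmp2* and *Mmp9* (-1.38) fell in muscle and *Mmp9* in WAT, the value of *Mmp9* in muscle being named after it was seen, where 5.02% of all genes fell in muscle and 5.63% in WAT. In GRf/f mice 2 rose and 1 fell in muscle, against 3.26% and 4.72% of all genes, 1 rose and 0 fell in liver, against 5.90% and 5.72%, and 1 rose and 3 fell in WAT, against 5.49% and 8.07%. The list medians in GRf/f mice were -0.18 in muscle, -0.69 in liver and 0.10 in WAT, compared with -0.08, 0.00 and -0.07 for all genes.

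Liver genes known to depend on the sex-specific pattern of GH release were also described. These data hold no measure of GH in blood or of STAT5B activity. Whether the changes of these genes with CORT run through GH was not tested. In male mice GH is secreted in pulses that activate STAT5B intermittently and maintain male-biased genes while female-biased ones stay low. Of 17 male-biased genes, all tested, 11 fell and 0 rose with CORT in GRf/f liver (median of -1.21), and 12 fell and 0 rose in GRmKO liver (median of -1.27), against all-gene medians of 0.00 and 0.05. Over all genes tested 5.72% fell and 5.90% rose in GRf/f liver, and 2.82% and 2.80% in GRmKO liver. *Hsd3b5*, a male-specific steroid dehydrogenase, fell from 309 to 22.1 CPM in GRf/f (-3.77, -3.94 to -3.67) and from 129 to 33.8 CPM in GRmKO liver (-1.92, -2.06 to -1.82). *Cyp7b1*, an oxysterol hydroxylase, fell from 514 to 113 CPM (-2.18, -2.25 to -2.12) and from 268 to 93.8 CPM (-1.51, -1.59 to -1.44). The major urinary proteins *Mup7* and *Mup1* each changed by -2.60 in GRf/f and by -3.59 and -3.26, respectively, in GRmKO liver, whereas *Mup20*, named after its values were seen, showed 0.71 and 0.97. *Mup* genes are near-identical copies, so the division of reads among them is uncertain, and the same holds for several *Cyp* genes of both lists.

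Of 18 female-biased genes 11 were tested, and 7 rose and 1 fell in GRf/f liver (median of 1.52), while 7 rose and 0 fell in GRmKO liver (median of 1.41), against the same shares and medians of all genes as for the male-biased list. *Cyp17a1*, a steroid hydroxylase, measured 1.53, 279, 3.87 and 248 CPM (7.11, 7.01 to 8.06 in GRf/f and 5.83, 5.68 to 6.34 in GRmKO mice). *Cyp3a41a* was at 1 count in each vehicle library and at 2.003 and 0.961 CPM under CORT, with ratio intervals of 2.83 to 10.73 and 1.67 to 9.69 on the log2 scale. *Ntrk2*, a neurotrophin receptor, passed 2-fold in GRf/f liver (a log2 change of 2.42, against 0.26, -0.54 to 1.43, in GRmKO mice), and the difference between genotypes was not tested. *Abcd2*, a peroxisomal transporter, was the gene that fell in GRf/f mice, from 1.34 to 0.372 CPM (-1.08, -3.12 to -0.60). Between genotypes, 0 of the male-biased genes was higher and 2 were lower in GRmKO liver under vehicle, and 0 and 4 under CORT, and of the female-biased genes 2 were higher and 0 lower under vehicle, and 4 and 1 under CORT. Of all genes, 1.26% were higher and 1.04% lower under vehicle, and 2.44% and 2.27% under CORT. In GRmKO liver the sex-biased lists thus had medians close to those of GRf/f liver, while *Socs2* and *Cish* stood at 84.7% and 55.0% of vehicle there, against 16.9% and 21% in GRf/f liver.

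**Figure D4:**
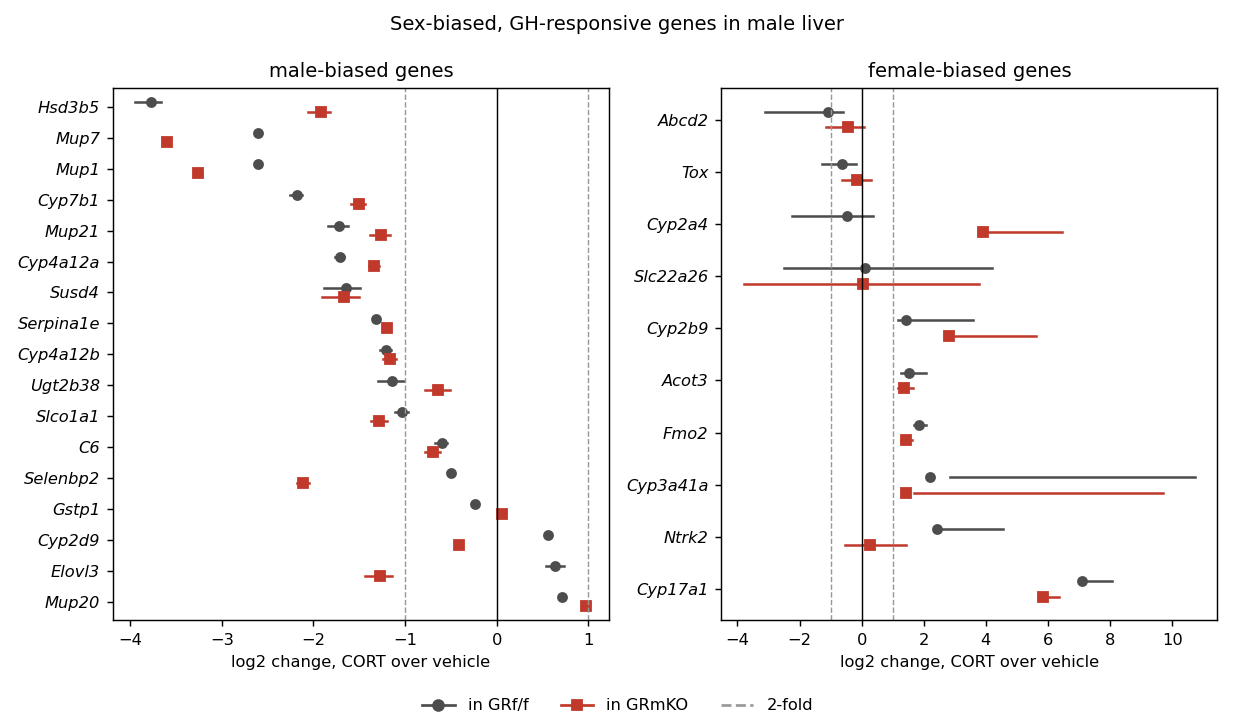
Log2 change of CORT over vehicle in liver for the 17 male-biased and 10 of the 11 tested female-biased genes, in GRf/f (circles) and GRmKO (squares) mice, ordered by the change in GRf/f. Lines give the 95% counting interval of the count ratio, which lies beyond the symbol for genes near 0 under vehicle because 0.5 CPM is added to the levels only; the medians are -1.21 and -1.27 for the male-biased and 1.52 and 1.41 for all 11 female-biased genes.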

How the data were processed

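The authors sequenced 12 pooled RNA libraries (3 mice each, 100-base paired reads) and quantified them with Salmon 1.2.1, as the submitters' processing notes also list, against GENCODE M20 protein-coding transcripts. They imported the output into R 3.5.0 with tximport and deposited estimated counts scaled to transcript length and library size. For each gene name they kept the entry with the largest total. Each entry carries 1 transcript ID, and whether its value is summed over the gene or belongs to that transcript is not settled here, which bears on the genes with several protein-coding transcripts (*Ghr* 5, *Igf1* 8, *Igfbp2* 2, *Igfbp3* 2, *Socs2* 7, *Cish* 3, *Stat5b* 2). *Igfals*, *Igfbp1* and *Igfbp5* have 1. The same question applies to genes of the other lists, *Jak2* among them. *Cidec*, an adipocyte marker, was listed at 0 in vehicle-treated GRmKO muscle, where *Adipoq* stood at 16.8 and *Plin1* at 14.5 CPM. No exon of the 10 genes overlapped another protein-coding gene in GENCODE M21 (GRCm38), from which positions were taken.

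From the deposited estimated counts, not rounded, CPM and log2((CPM + 0.5)/(CPM + 0.5)) were computed with Python 3.11.15 and pandas 2.3.3, and scipy 1.17.1 gave the exact 95% intervals. Totals of 19394572 to 20940660 counts put the floor of 3 counts at about 0.15 CPM. With 1 library per group a 2-fold rule was used without a p value. The pooled design leaves the spread between mice unmeasured. The authors' NOISeq method (no replicates, threshold of 0.9) was rewritten and run as an alternative, beside TMM factors (edgeR 4.0.16, R 4.3.3), median-of-ratios factors, other pseudocounts and other filters. Scripts were tested on simulated data. All 10 genes were named, and from each pathway list up to 4 called genes per direction with the largest change with CORT in GRf/f mice, genes named otherwise being marked, and 1 gene of the female-biased list is not reported here by itself. The 10 genes and all lists were chosen with earlier results of these data known.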

Additional observations from a re-analysis of the deposited data

Results flagged for a closer look

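In liver *Igfbp1* and *Igfbp5* had log2 changes with CORT of opposite sign in the 2 genotypes. The log2 change in GRmKO minus that in GRf/f mice was 2.73 for *Igfbp1* and 1.47 for *Igfbp5*. For *Igfbp5* the change of 0.30 in GRmKO liver was short of 2-fold. With 1 library per group, these differences between genotypes were not tested.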

How the results depend on the processing

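No paired analysis was possible because each group had 1 library. Of the 12 counts of axis genes past 2-fold, 9 stayed within 1.5 times of the reported count under every alternative run. For CORT in GRmKO muscle the count of 1 became 0 with TMM factors, 0 with median-of-ratios factors, 0 with a pseudocount of 2 CPM and 2 with no filter on zero values, which adds *Igfbp2*. For GRmKO over GRf/f liver under vehicle the count of 1 became 0 with a pseudocount of 2 CPM. For GRmKO over GRf/f WAT under CORT the count of 0 became 1 with TMM factors, 1 with median-of-ratios factors and 1 with a pseudocount of 0.1 CPM. NOISeq at 0.9 called 4 rather than 5 of the genes for CORT in GRf/f liver, without *Igfbp5*, and 3 rather than 4 in GRf/f WAT, without *Cish*. Over all genes the calls per comparison ran from 287 to 1928, and from 71 to 1075 with NOISeq, 114 to 1192 with a pseudocount of 2 CPM, 670 to 2603 with 0.1 CPM and 657 to 2438 with no filter. Of 108 log2 changes, 27 passed 2-fold. The 108 moved by at most 0.15 with TMM factors, where 6 small changes that were not called turned sign, and by at most 0.60 with a pseudocount of 2 CPM. Scaling moved the median of genes with at least 50 counts by over 0.1 for CORT in GRmKO muscle (from -0.08 to 0.06 with TMM factors), in GRf/f muscle (from -0.08 to 0.02 with median-of-ratios factors) and in GRmKO WAT (from -0.12 to 0.01 with TMM factors). At these depths counting error was small for most of the genes, but wider for those with few counts, such as *Cish* at 28.5 counts in CORT-treated GRf/f WAT. With 1 pooled library per group the spread between pools is unmeasured, which limits what the differences between groups can show.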
